A study of Mus musculus with 4 samples.

Results

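Interferon-stimulated and Schlafen genes, 40 in all, were followed in superficial-zone cartilage of the mouse knee. They were taken by gene symbol from the 24421 rows of the deposited count table, and all 40 were found. The list joins interferon transcription factors, nucleic acid sensors, antiviral effectors, enzymes of the ISG15, ubiquitin and ADP-ribose systems, the chemokine Cxcl10 and 4 Schlafen genes. RNA came from the medial femoral condyle of 2 mice of the C57BL/6J strain, called M04 and M05, with the tissue taken 8 weeks after the operation. In each animal one knee had sham surgery and the other destabilization of the medial meniscus (DMM), which makes the joint unstable and leads to osteoarthritis, so that there were 4 libraries, 1 per knee. Wherever a pair of values is given for a mouse, the sham knee comes first and the DMM knee second. The sample labels call both animals wild type, whereas the design text of the series marks M05 as a knockout of an unnamed gene, so in M05 against M04 the animal and a possible difference of genotype cannot be told apart. The description field of both sham samples mentions a DMM knee, which contradicts the title and the treatment entry of the same samples, and the title was used. The labels name no drug and give no age.

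Interferons are secreted signalling proteins of antiviral defence. Type I interferons bind the receptor made of Ifnar1 and Ifnar2, the kinases Jak1 and Tyk2 become active, and a complex that holds Stat2 and Irf9 binds the interferon-stimulated response element (ISRE) in the promoters of interferon-stimulated genes. Type II interferon (Ifng) acts at a different element, the gamma-activated site (GAS). The Schlafens are a family of growth- and virus-regulating genes that lie beside each other on mouse chromosome 11 and are known chiefly from immune cells. Cartilage itself holds no blood vessels, while marrow lies directly beneath it.

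The 4 libraries held 12712425 to 19336628 counts. Haemoglobin rows took 25.7% to 35.3% of them, and the 40 genes together took 0.136% to 0.156%. The fixed cell type markers gave transcripts of chondrocytes in every library (Col2a1, Acan and 5 others, summed 1104 to 5249 CPM) beside those of neutrophils and marrow granulocytes (37666 to 63643 CPM), macrophages and monocytes (1087 to 1211 CPM) and B cells (471 to 522 CPM). CPM here is a count scaled to a common library size after TMM, a normalisation that assumes most genes do not change. The sham library of M05 had the lowest chondrocyte sum. In such bulk RNA, fewer cells of a type and less RNA per cell cannot be told apart. Each knee gave 1 library, so n is 2 animals.

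The promoter window of a gene, 250 bases before to 50 after its start, was found in the RefSeq table of build GRCm38.p6 for 30 of the 40 genes. The ISRE core, GAAA and GAAA with any 2 bases (NN) between them, was searched on both strands (TTTC, any 2 bases and TTTC on the other strand) and stood in the windows of 15 of these 30 genes, against 3.99% of 27025 genes in the table. The GAS core TTCNNNGAA, which reads the same on both strands, stood in the windows of 7 genes, or 23.3%, against 9.55%. Bst2, Eif2ak2 and Oas1a had both. Upstream stretches of 6 genes are printed 5′ to 3′ in the direction of transcription with the ISRE cores in capitals, because these are a factor of the pathway, its most abundant or best-known targets, the chemokine and the Schlafen gene with the largest difference between sham and DMM. All lie before the annotated start of the gene, in GRCm38.p6, which is not the build of the count table: Isg15 at chr4:156200850-156200921 (minus strand), Ifit1 at chr19:34640760-34640838 (plus strand), Rsad2 at chr12:26456538-26456597 (minus strand), Stat2 at chr10:128270251-128270310 (plus strand), Cxcl10 at chr5:92349068-92349127 (minus strand) and Slfn8 at chr11:83020824-83020883 (minus strand).
Isg15: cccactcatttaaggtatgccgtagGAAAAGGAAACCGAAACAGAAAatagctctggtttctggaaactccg
Ifit1: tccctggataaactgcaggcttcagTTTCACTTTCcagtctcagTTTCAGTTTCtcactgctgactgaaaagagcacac
Rsad2: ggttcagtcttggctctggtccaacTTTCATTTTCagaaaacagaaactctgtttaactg
Stat2: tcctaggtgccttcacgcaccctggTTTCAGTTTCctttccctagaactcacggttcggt
Cxcl10: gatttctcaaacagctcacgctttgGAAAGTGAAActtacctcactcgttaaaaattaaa
Slfn8: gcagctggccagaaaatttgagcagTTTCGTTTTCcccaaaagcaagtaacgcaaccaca
The Isg15 stretch holds 3 overlapping cores and the Ifit1 stretch 2 separate ones. A match is a description of these letters and not a shown binding site.

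All of the 40 genes but Mx1 and Mx2 had counts in every library, at levels that differed widely between genes. Per transcript length, in the authors' FPKM values, which are scaled for transcript length and library depth, 10 of the 40 genes had a mean of at least 10 FPKM, 26 had a mean from 1 to 10 and 4 had a mean under 1. Isg15, the ubiquitin-like modifier, was highest with 160.1 and 160.1 FPKM in M04 and 206 and 177 FPKM in M05. The levels of Slfn2, a Schlafen needed for the quiescence of T cells, overlapped with those of Isg15, at 143 and 125 FPKM in M04 and 164 and 153 FPKM in M05. Both lay above every value of Rsad2, which encodes the antiviral enzyme viperin and had 64.1 and 57.7 FPKM in M04 and 61.1 and 62.5 FPKM in M05. The levels of Rsad2, Bst2 (mean 59.6 FPKM), which tethers budding virions to the cell surface, and Samhd1 (mean 57.0 FPKM), a dNTP hydrolase, overlapped across the libraries. Then came Slfn1 (mean 41.7 FPKM), Irf7 (33.7), Irf9 (25.02), Irf1 (18.4) and Oas3 (13.0).

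At the other end stood Oas2 (mean 0.470 FPKM), Ifi44 (0.238), Mx1 (0.177) and Mx2 (0.0217). The Mx genes encode dynamin-like GTPases that block viral replication, and the Mx1 allele of C57BL/6 mice is known to be defective. Mx1 had 7 and 8 counts in M04 and 12 and 0 in M05. Mx2 had 1, 0, 2 and 0 counts in the same order. Neither Mx gene passed the filter on low counts, so 38 of the 40 genes were tested. For 23 of these 38, the highest library was under 1.5 times the lowest, and for 5 it was over 2 times the lowest, namely Cxcl10 (6.81), Ifi44 (4.91), Slfn8 (2.90), Ifit1 (2.14) and Trim14 (2.11). The median ratio of highest to lowest library was 1.42 for the 38 genes and 1.47 for all 13103 genes tested.

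**Figure D1:**
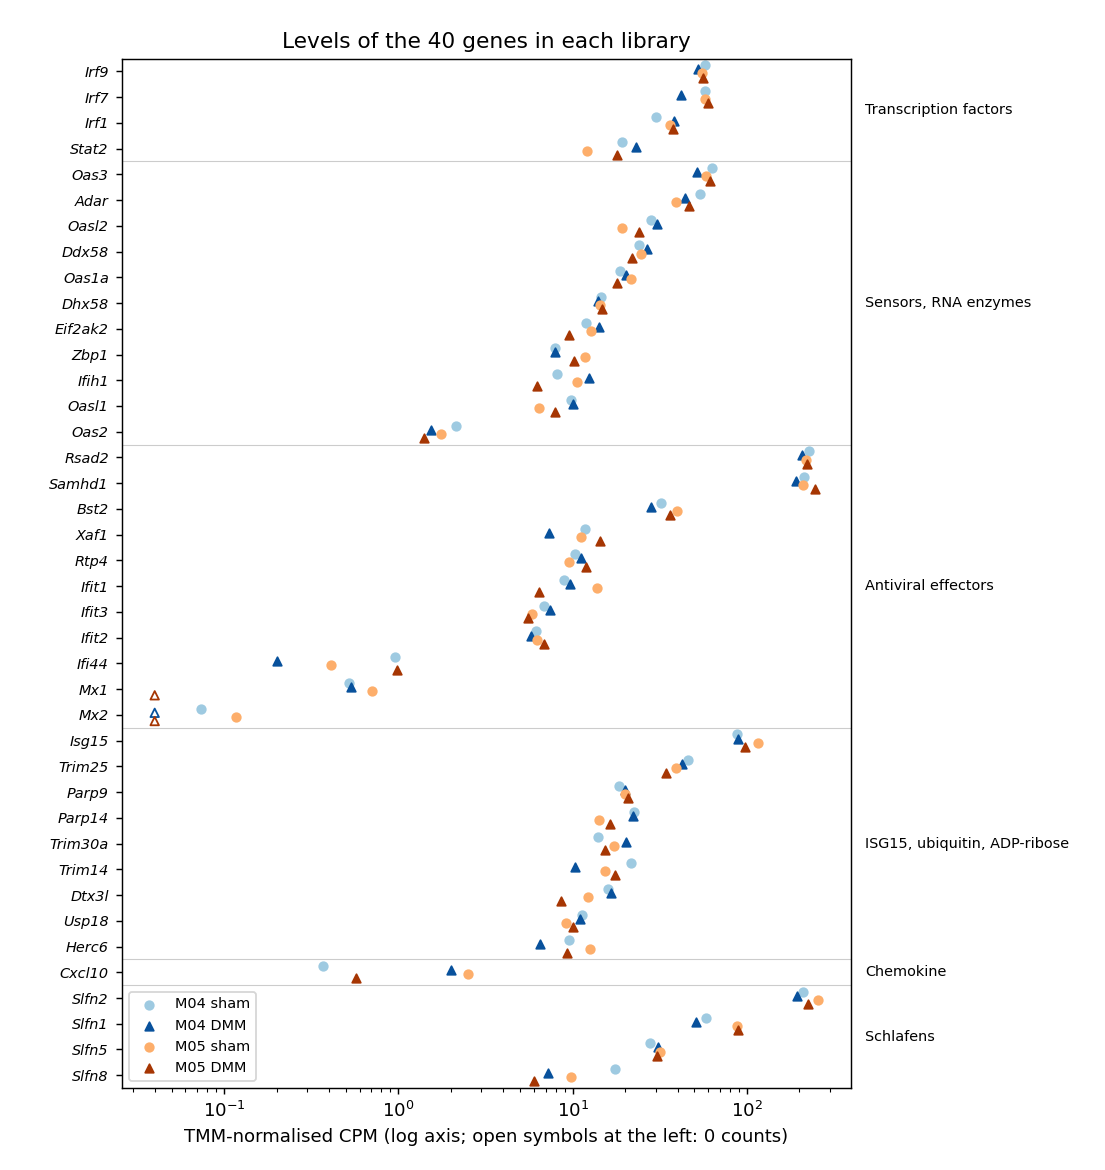
Level of each of the 40 genes in the 4 libraries as TMM-normalised CPM on a log axis, grouped by role, with circles for sham, triangles for DMM, blue for M04 and orange for M05; open symbols stand for 0 counts. The 4 symbols of most genes lie close together while genes differ from each other over a far wider range, and Cxcl10, Ifi44 and Slfn8 are spread most among the tested genes.

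The first comparison asked whether these genes differ between DMM and sham knees 8 weeks after surgery. None did past the threshold. With edgeR's quasi-likelihood test and the mouse as a block, 0 of the 38 genes were higher in DMM knees at a Benjamini-Hochberg adjusted p under 0.05, against 0.633% of the 13103 genes tested, and 0 were lower, against 0.0153%. With DESeq2 the counts were also 0 and 0. At an unadjusted p under 0.05, edgeR's test passed 1 of the 38 genes, Slfn8, or 2.63%, beside 5.20% of all genes. The median log2 fold change was -0.06 over the 38 genes and -0.01 over all genes, with 24 negative and 14 positive values from -0.99 (Slfn8) to 0.42 (Stat2). The 95% interval of the fold change lay within a 2-fold change in either direction for 32 of the 38 genes and within 1.5-fold for 21. The exceptions to the first were Oas2, Ifit1, Ifi44, Herc6, Cxcl10 and Slfn8. For 29 of the 38 genes the model took the spread wholly from the trend over genes of like level. For the others the trend weighed 4319 (Cxcl10) to 12807 (Irf7) degrees of freedom, against 1 residual degree of freedom. The intervals of all 38 genes therefore do not measure how far the mice differed.

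None of the 4 transcription factors passed the threshold. Irf9, the DNA-binding partner of Stat2, had 57.3 and 52.2 CPM in M04 and 55.1 and 56.2 CPM in M05. Its log2 fold change was -0.05 (SE 0.16), and sham and DMM values overlapped. Irf7, the amplifier of type I interferon production, had 57.2 and 42.1 CPM in M04 and 57.6 and 60.2 CPM in M05, so that the DMM library of M04 was the lowest and that of M05 the highest (log2 fold change -0.19, SE 0.16). Irf1, a factor induced by type II interferon, had 30.2 and 37.98 CPM in M04 and 36.2 and 37.7 CPM in M05. Both DMM values of Irf1 lay above both sham values, but by less than the test could call (0.19, SE 0.17, adjusted p = 1.0 by edgeR). Stat2 had 19.3 and 23.1 CPM in M04 and 12.02 and 17.98 CPM in M05. It was higher in the DMM knee of each mouse and had the largest positive fold change of the list (0.42, SE 0.21, adjusted p = 0.962 by edgeR).

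The 11 nucleic acid sensors and RNA enzymes had log2 fold changes from -0.41 (Oas2) to 0.21 (Oasl2), with 9 negative, 2 positive and a median of -0.06. They include the RIG-I-like receptors Ddx58, Ifih1 and Dhx58, which recognise double-stranded RNA in the cytosol, the kinase Eif2ak2, which halts translation, the Z-nucleic acid sensor Zbp1, the oligoadenylate synthetases of the Oas group and the RNA editor Adar. Ddx58 (-0.01, SE 0.19), Dhx58 (-0.01, SE 0.23) and Adar (-0.02, SE 0.17) lay closest to 0. Ifih1, which encodes MDA5, had 8.15 and 12.4 CPM in M04 and 10.6 and 6.24 CPM in M05. It thus had a positive ratio in one mouse and a negative one in the other, 0.60 and -0.75 on the log2 scale.

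The 9 tested antiviral effectors had fold changes from -0.49 (Ifit1) to 0.21 (Rtp4), with 5 negative and 4 positive and a median of -0.05. Rsad2 had 228 and 207 CPM in M04 and 219 and 223 CPM in M05 (-0.05, SE 0.15). Its 4 values lay within a narrow band, and the 95% interval of the change ran from -0.35 to 0.24. Samhd1 had a fold change of 0.04 (SE 0.15) and Bst2 one of -0.16 (SE 0.18). The Ifit genes encode proteins that bind foreign RNA ends. Ifit2 (0.02, SE 0.34) and Ifit3 (0.03, SE 0.34) had fold changes near 0. Ifit1 had 8.96 and 9.63 CPM in M04 and 13.7 and 6.40 CPM in M05, so the sham library of M05 stood highest and its DMM library lowest (-0.49, SE 0.28, adjusted p = 1.0 by edgeR). Ifi44 rested on 13, 3, 7 and 12 counts in the sham and DMM libraries of M04 and M05 in turn, with log2 ratios of -1.70 in M04 and 1.03 in M05.

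The 9 genes of the ISG15, ubiquitin and ADP-ribose group had fold changes from -0.50 (Herc6) to 0.19 (Trim30a), with 5 negative, 4 positive and a median of -0.11. Isg15 had 88.3 and 89.3 CPM in M04 and 115 and 97.4 CPM in M05 (-0.11, SE 0.15). Both libraries of M05 were above those of M04, and the DMM and sham values overlapped. Usp18, the protease that removes ISG15 and dampens the receptor, had a fold change of 0.04 (SE 0.27). Herc6, the mouse ligase that attaches ISG15, was lower in the DMM library of each mouse, with log2 ratios of -0.55 in M04 and -0.44 in M05, and did not pass (SE 0.28, unadjusted p = 0.0737). Trim14, an adaptor in RNA sensing, fell outside the rule for named genes and was picked after its values were seen. It had 21.7 and 10.3 CPM in M04 and 15.4 and 17.6 CPM in M05 (-0.43, SE 0.22, adjusted p = 0.985 by edgeR). Dtx3l and Parp9, which act together as a ubiquitin ligase and ADP-ribosyltransferase pair and whose genes overlap in the RefSeq table, had fold changes of -0.21 (SE 0.24) and 0.09 (SE 0.20). Whether the libraries kept strand is not given in the sources used here, so reads in that overlap cannot be assigned with certainty.

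Cxcl10, a chemokine that draws activated T cells and is induced by interferons, was low and opposed in the mice. It had 5 and 30 counts in M04 and 43 and 7 counts in M05, or 0.370, 2.01, 2.52 and 0.575 CPM. The log2 ratios were 2.07 and -1.90, and the fold change over both mice was 0.04 (SE 0.79). The summed CPM of the 5 skeletal muscle markers had the same order over the libraries, with 58.9, 211, 250 and 60.9, none of them at 0. Not every marker shared this order. Acta1 (33.1 CPM in M04 sham, 32.7 in M05 DMM), Mb (0.519 and 0.493) and Myh1 (2.74 and 0.739) were lowest in M05 DMM. Myh1 was highest in M04 DMM, at 38.2 CPM. The part of these muscle markers in the Cxcl10 values was not tested.

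**Figure D2:**
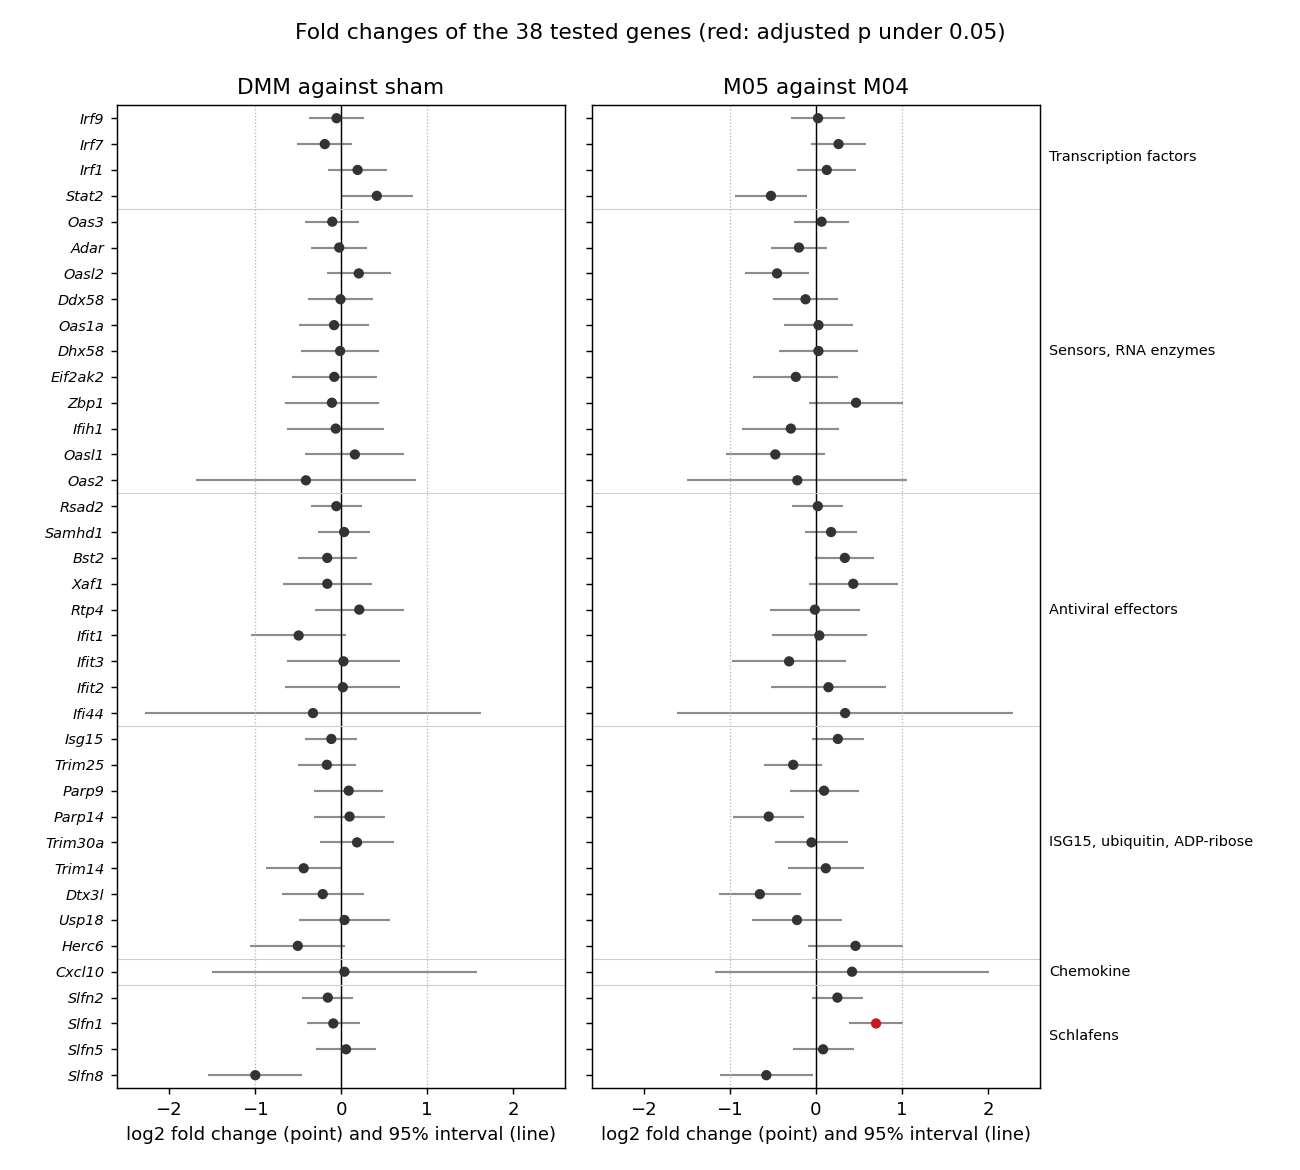
Log2 fold change (points) and 95% interval from the edgeR fit (lines) of the 38 tested genes for DMM against sham (left) and M05 against M04 (right), grouped by role; dotted lines mark a 2-fold change and red marks an adjusted p under 0.05. On the left no gene is red and Slfn8 lies furthest from 0 at -0.99, and on the right Slfn1 at 0.70 is the one red point.

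Among the Schlafens, Slfn8 showed the largest difference between sham and DMM knees of the whole list, just short of the threshold. It had 17.4 CPM (235 counts) and 7.22 CPM (108.5 counts) in M04, and 9.74 CPM (166 counts) and 5.99 CPM (73 counts) in M05. Both DMM values lay below both sham values, and the gap within M04 was the wider one, with log2 ratios of -1.25 and -0.69. The log2 fold change was -0.99 (SE 0.28, 95% interval -1.54 to -0.45, unadjusted p = 0.000344, adjusted p = 0.0524 by edgeR). Over the alternatives its adjusted p ran from 0.0468 to 1.0. It passed with a filter of a mean of at least 5 CPM (0.0481) and without robust moderation (0.0468), and in no other setting. Without the sham library of M04, in a fit that has no mouse term, the fold change was -0.56.

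None of the other Schlafens of the list passed. Slfn2 was lower in the DMM library of both mice by a smaller ratio than Slfn8, with 211 and 193 CPM in M04 and 255 and 225 CPM in M05 (-0.15, SE 0.15). Slfn5 had 27.6 and 31.0 CPM in M04 and 31.6 and 30.5 CPM in M05 (0.06, SE 0.18). Slfn1 had 58.1 and 50.8 CPM in M04 and 87.7 and 88.5 CPM in M05 (-0.09, SE 0.16). For these 3 genes the sham and DMM values overlapped. Of the 6 Schlafen relatives outside the list, 4 were tested and none passed. Slfn3 and Slfn4 were higher in the DMM library of both mice, Slfn3 with 3.19 and 3.61 CPM in M04 and 4.93 and 5.50 CPM in M05 (0.17, unadjusted p = 0.679 by edgeR) and Slfn4 with 1.33 and 1.40 CPM in M04 and 0.938 and 1.31 CPM in M05 (0.27, unadjusted p = 0.714 by edgeR). Slfn9, a close relative whose gene is a neighbour of Slfn8, had a lower value in the DMM library of both mice, 3.85 and 3.28 CPM in M04 and 3.05 and 1.72 CPM in M05 (-0.51, unadjusted p = 0.301). Counting may divide reads between such close relatives, and 1 of the 4 Slfn8 counts and all 4 Slfn5 counts were not whole numbers. Slfn14, a ribosome-linked member known from red cell and platelet precursors, had 81.2 and 72.5 CPM in M04 and 59.6 and 59.1 CPM in M05 (-0.09). Slfn3, Slfn4, Slfn9 and Slfn14 are named after their values were seen. Of the 11 marker lists, 3 had higher sums in the DMM library of both mice. The 7 chondrocyte genes summed to 4498 and 5249 CPM in M04 and 1104 and 3903 CPM in M05, the 4 fibroblast genes to 121 and 454 CPM and to 92.5 and 208 CPM, and the 4 osteoblast genes to 1038 and 1365 CPM and to 1272 and 1412 CPM. Higher in DMM by edgeR's adjusted p were 4, 3 and 2 genes of these lists. Pi16 of the fibroblast list was lower in the DMM library of both mice, at 39.9 and 34.9 CPM in M04 and 45.2 and 43.2 CPM in M05. Another 2 lists had lower sums in the DMM library of both mice: the 5 erythroid genes summed to 132648 and 102370 CPM in M04 and 174258 and 138337 CPM in M05, and the 5 genes of plasmacytoid dendritic cells, one of which is Bst2, to 78.3 and 65.9 CPM and to 84.7 and 73.7 CPM. Single genes of these 2 lists went the other way in M05, namely Alas2 (2920 and 3112 CPM), Slc4a1 (1777 and 1812 CPM) and Siglech (24.2 and 25.7 CPM). None of the 5 lists had a marker at 0, and their part in the Slfn8 values was not tested.

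**Figure D3:**
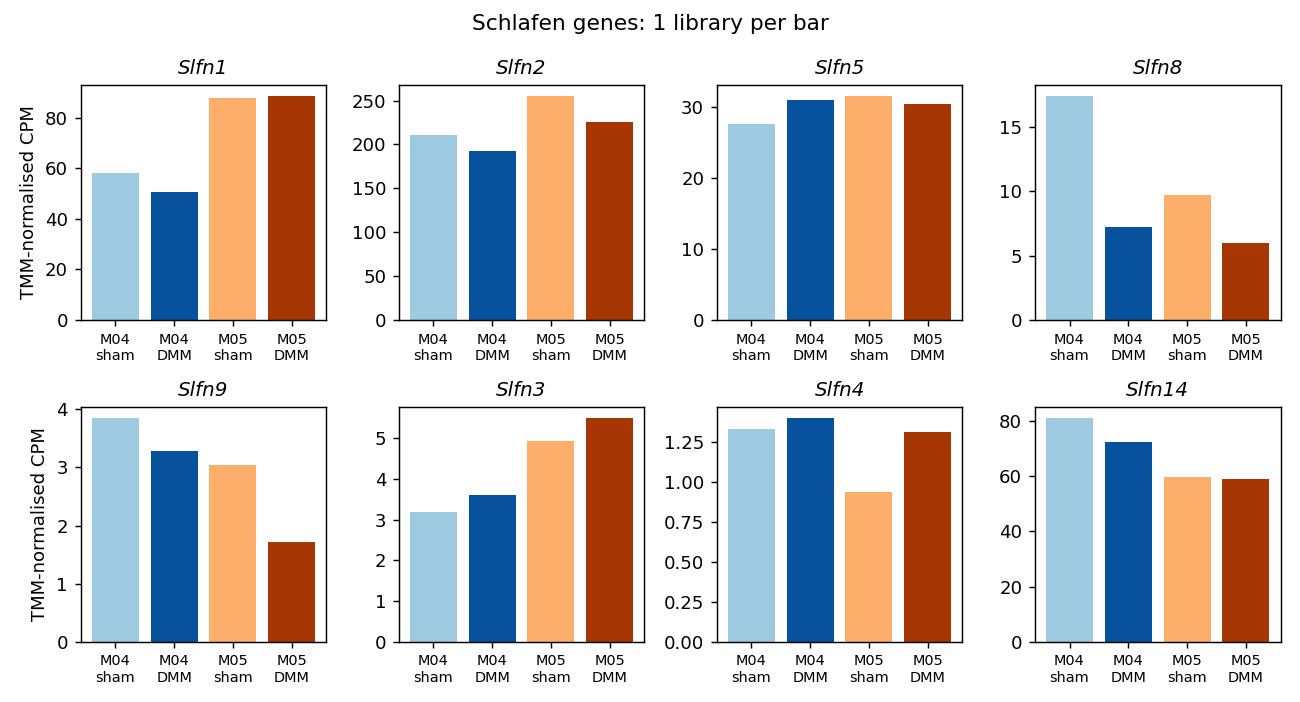
TMM-normalised CPM of 8 Schlafen genes, the 4 of the list and 4 tested relatives, with 1 bar per library and axes from 0. Slfn8 is lower in the DMM bar of each mouse (17.4 to 7.22 and 9.74 to 5.99 CPM), and both bars of M05 are above those of M04 for Slfn1.

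The second question was how far the responses of the animals were alike. Of the 38 genes, 6 had a positive log2 ratio in both mice (15.8%, against 23.2% of all genes tested), namely Irf1, Oasl1, Oasl2, Parp9, Rtp4 and Stat2. Another 6 had a negative ratio in both (15.8%, against 23.8%), namely Bst2, Herc6, Oas2, Slfn2, Slfn8 and Trim25. The other 26 had ratios of opposite sign (68.4%, against 52.9%). A ratio of at least 0.5 in size with the same sign in both mice was found for Slfn8 on the negative side (1 of 38, or 2.63%, against 1.79%) and for 0 genes on the positive side (against 2.96%). Irf1 and Rtp4, a receptor transporter protein, had both DMM values above both sham values (2 of 38, or 5.26%, against 13.2%). Herc6, Oas2 and Slfn8 had both below (3 of 38, or 7.89%, against 12.3%). The shares above those of all genes were that of opposite signs and that of the single gene Slfn8, and no test was made over the list.

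The median log2 ratio of the members was -0.03 in M04 and 0.02 in M05, with single genes from -1.70 (Ifi44) to 2.07 (Cxcl10) in M04 and from -1.90 (Cxcl10) to 1.03 (Ifi44) in M05, and the median size of the difference between the ratios of the mice was 0.27 for the 38 genes and 0.34 for all genes. A model with mouse and surgery has no degree of freedom left to test such a difference. An edgeR fit without these terms contrasted M04 DMM and M05 sham with the remaining pair of libraries. Effects of mouse and surgery count as spread in that fit, so a gene that does not pass is not shown to respond alike. The fit passed 0 of the 38 genes and 2 of all 13103, the skeletal muscle markers Acta1 and Mb. At an unadjusted p under 0.05 by edgeR it passed 3 members, namely Cxcl10, Ifih1 and Trim14, each with an adjusted p of 1.0. These 3 are 7.89% of the members, beside 2.34% of all genes. Their directions differed: Cxcl10 and Ifih1 were higher in M04 DMM and M05 sham than in the remaining pair, and Trim14 was lower.

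**Figure D4:**
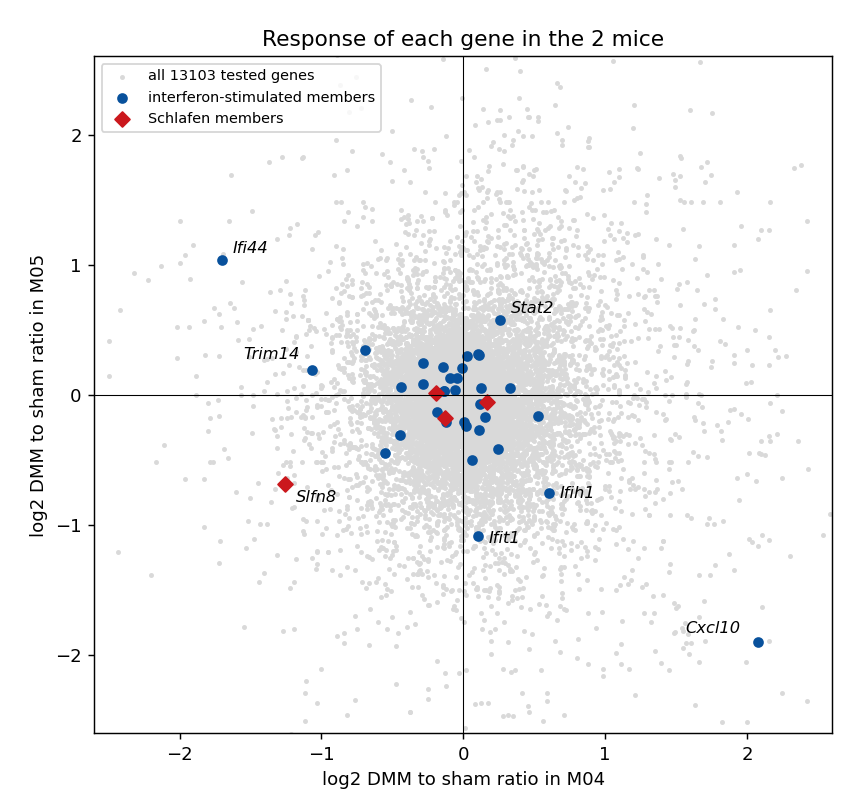
Log2 DMM to sham ratio of each gene in M04 (x axis) and in M05 (y axis), with all 13103 tested genes in grey, interferon-stimulated members in blue and Schlafens in red; 72 grey points lie outside the axes. Slfn8 is low in both mice (-1.25 and -0.69), and Cxcl10 (2.07 and -1.90) and Ifi44 (-1.70 and 1.03) have opposite signs.

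The third comparison set the animals against each other. It is 1 animal against 1, with the knees of each in the place of replicates. Its SE, intervals and p-values therefore hold no spread between animals. Slfn1 was the one member that differed past the threshold and was higher in M05, by 0.70 on the log2 scale (SE 0.16, 95% interval 0.39 to 1.01, adjusted p = 0.00160 by edgeR). Slfn1 is a Schlafen known for slowing the growth of lymphocytes. It was higher in both knees of M05, at 87.7 and 88.5 CPM, than in both of M04, at 58.1 and 50.8 CPM. This is 1 of 38 genes, or 2.63%, against 0.962% of all genes tested. In the other direction 0 of 38 were lower in M05, against 1.64% of all genes. In edgeR fits of 3 libraries without a surgery term, the Slfn1 call was lost when M04 sham (adjusted p = 0.553), M04 DMM (0.541) or M05 sham (0.0524) was left out, and kept when M05 DMM was (0.0238). Over all alternatives its adjusted p ran from 0.00153 to 0.591.

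Another 5 members had an unadjusted p under 0.05 between the animals, all lower in M05. They were Dtx3l (-0.65, SE 0.24), Slfn8 (-0.58, SE 0.28), Parp14 (-0.55, SE 0.21), an ADP-ribosyltransferase, Stat2 (-0.52, SE 0.21) and Oasl2 (-0.45, SE 0.19), with adjusted p-values from 0.134 to 0.303 by edgeR. With Slfn1 this made 6 of 38 genes (15.8%), beside 14.3% of all genes. Both libraries of M05 lay below both of M04 for 8 members (21.1%, against 22.8% of all genes), among them Stat2, Dtx3l and Parp14. Both lay above for another 8 (21.1%, against 22.5%), among them Isg15, Slfn1, Slfn2, Bst2 and Irf7. The median log2 fold change was 0.03 over the members and -0.01 over all genes. Beside the Slfn1 values, 7 genes of neutrophils and marrow granulocytes summed to 37666 and 37776 CPM in M04 and 63643 and 54265 CPM in M05. The 7 chondrocyte genes summed to 4498 and 5249 CPM in M04 and 1104 and 3903 CPM in M05. By edgeR's adjusted p, 2 granulocyte genes were higher in M05 and 5 chondrocyte genes lower. Mpo of the granulocyte list went the other way, with a log2 fold change of -0.05. The erythroid sums were also higher in M05, at 132648 and 102370 CPM in M04 and 174258 and 138337 CPM in M05. So were those of macrophages and monocytes, at 1125 and 1087 CPM in M04 and 1148 and 1211 CPM in M05. Endothelial sums were lower in M05, at 110 and 109 CPM in M04 and 77.7 and 87.0 CPM in M05. Of the 4 endothelial genes, 2 were lower in M05 by edgeR's adjusted p. Emcn of that list went the other way, with a log2 fold change of 0.29. B cell sums were also lower in M05, at 493 and 522 CPM in M04 and 472 and 471 CPM in M05. Each of these further lists held genes of both directions, and the sums of the remaining lists overlapped between the animals. No gene of the lists was at 0, and their part in the Slfn1 difference was not tested.

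Other genes of the pathway did not pass either. A further 76 genes were followed, those of interferon signalling and the 6 Schlafen relatives named above, and 65 were tested. By edgeR's adjusted p, 0 of the 65 passed in either direction for DMM against sham or for M05 against M04. Their median log2 fold changes were -0.04 and 0.00. DESeq2 also passed 0 of them, but for the animals it gave an adjusted p to only 19 of the 76. At an unadjusted p under 0.05, edgeR passed 0 of the 65 for surgery, beside 5.20% of all genes, and 9 for the animals (13.8%, beside 14.3% of all genes). For DMM against sham the smallest unadjusted p among them was 0.131. Of the 9 interferon genes listed, 8 had 0 counts in every library, Ifnb1 and 3 type I alpha genes among them. A count of 0 allows up to 3 counts, which is 0.176 CPM in the deepest library and 0.246 CPM in the shallowest, as an upper limit on the level that may have been missed. Ifng had 0 and 6 counts in M04 and 2 and 1 counts in M05. The receptors were present: Ifnar1 had 23.4 and 29.1 CPM in M04 and 22.1 and 24.96 CPM in M05 (0.25), and Ifnar2 had 67.6 and 63.8 CPM in M04 and 67.7 and 69.1 CPM in M05 (-0.03).

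The promoter groups are set side by side with no test. The 15 tested members with an ISRE core in the window had a median log2 fold change of -0.06 for DMM against sham, from -0.99 (Slfn8) to 0.42 (Stat2). The 15 tested members whose windows lacked these letters had a median of -0.09, and all 384 tested genes with the core a median of -0.03.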

How the data were processed

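Poly(A) RNA of 4 knees was sequenced as single-end reads, per the labels' protocols. Per the submitters' processing notes, reads were placed on GRCm39 (mm39). Aligner, counter and strand setting: not given in the sources used here. The deposited table holds estimated counts per gene, of which 9.21% to 10.9% in a library were not whole. It lists each library in a pair of columns with all 24421 values equal, and each was used once. FPKM values were made by the authors and served for levels between genes and for alternatives.

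After rounding, edgeR 4.0.16 (R 4.3.3) was run on the estimated counts: filterByExpr (13103 genes), TMM, and a robust quasi-likelihood fit with mouse and surgery as terms, which leaves 1 residual degree of freedom. Benjamini-Hochberg values cover all genes tested, with a threshold of 0.05. The mouse is a block since the labels pair the knees by animal. Across genes, the deviations of a mouse's libraries from their group means had a correlation of 0.18. Ratios per mouse come from log2 CPM with a prior count of 2. The 95% intervals are the log2 fold change plus and minus the SE times a t quantile at the moderated degrees of freedom. That quantile leaves equal tails on both sides of the 95%. The SE was taken as the size of the fold change over the root of F. DESeq2 1.42.0 and limma 3.58.1 on log2(FPKM + 1) and log2(FPKM + 0.1) were alternatives. The fitting script was tested on simulated data.

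The members and lists were chosen with earlier results of these data known. Values in each library are given for members past the threshold, those with ratios of at least 0.5 in size in both mice, the 3 highest in FPKM, the Schlafens and the transcription factors. Others are named at the ends of a range, by a count of the members, or, as said in the text, after their values were seen. Of the marker genes fixed for cell types, Ly6g was not matched. Intervals and limits from 0 counts cover counting error and modelled spread only.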

Additional observations from a re-analysis of the deposited data

How the results depend on the processing

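The members passed no threshold for surgery in any fit, with these exceptions: Slfn8 was called lower (1 member) with a filter of a mean of at least 5 CPM and without robust moderation. For the animals, Slfn1 was the 1 member called in each setting that changed the scaling, the filter, the moderation or the haemoglobin rows. DESeq2 called it too, but gave an adjusted p to only 8 of the 38 members and to 2191 genes in that comparison. The count was 0 by limma on log2(FPKM + 1) (adjusted p = 0.591) and log2(FPKM + 0.1) (0.529) and with mouse alone (0.0931), and 0 to 1 with a library left out. Over all genes, the 83 higher and 2 lower for surgery became 35 and 0 with RLE size factors, 23 and 0 with the haemoglobin rows left out, 11 and 0 with DESeq2, and 0 and 1 by limma with either pseudocount. With no filter 1 gene was lower, and with the filter on CPM 4 were. The fit with no replicate block gave 0 and 0, so the count over all genes depends on the pairing by mouse, while 0 members passed with or without it. Leaving out a library gave 0 (M04 DMM or M05 sham left out) to 95 (M04 sham left out) higher and 0 to 26 lower. For the animals, 126 higher and 215 lower became 62 and 124 with RLE, 32 and 71 without haemoglobin, 57 and 27 with DESeq2, 0 and 0 by limma with either pseudocount and 0 and 0 with mouse alone. Leaving out a library gave 0 (M04 sham left out) to 200 (M05 DMM left out) higher and 0 to 131 lower. The contrast of responses passed 2 genes, and 0 with the filter on CPM. The cause of these changes was not tested, and fits of 3 libraries drop a term. Of the 38 members, 11 kept the sign of the surgery fold change in all 4 fits that leave out a library and 34 in the other settings. For the animals these were 23 and 37, counted over the settings that gave a member a value. For Oas2, Ifit1, Ifi44, Herc6, Cxcl10 and Slfn8 the 95% interval of the surgery fold change reached past a 2-fold change.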

Other observations

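Cxcl9, a chemokine induced by type II interferon and named here after its values were seen, moved in the same direction as Cxcl10 within each mouse. It had 3.78 CPM (51 counts) and 5.35 CPM (80.1 counts) in the sham and DMM knees of M04, and 5.92 CPM (101 counts) and 1.56 CPM (19.4 counts) in the same order in M05. The log2 ratios of DMM to sham were 0.49 in M04 and -1.84 in M05. The lowest library was the DMM knee of M05 for Cxcl9 and the sham knee of M04 for Cxcl10. Cxcl9 was picked from 34 interferon-induced genes followed outside the list, and these did not all share its directions. Ifi27l2a did, with log2 ratios of 0.24 in M04 and -0.71 in M05, while Gbp2 had the opposite signs, -0.18 and 0.37.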
